A study of Sus scrofa with 16 samples.

Results

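The 8 genes described here are LGR5, RNF43, ASCL2, SOX9, EPHB2, CD44, OLFM4 and DAB2, a set taken to mark the stem and progenitor cells of intestinal crypts. They were taken by symbol from the 25880 genes of the count matrices, and 7 of the 8 carry their symbol there, while RNF43 is listed by its identifier ENSSSCG00000017640 alone and was matched through a gene name table. The study profiled the small intestine of female pigs of mixed breed, aged 7.5 weeks, by sequencing the RNA of single cells. Tissue came from 4 regions, namely the duodenum just beyond the pylorus (DUOD), the jejunum (JEJ), and the ileum dissected into pieces with Peyer's patches (IPP), which are clustered lymphoid follicles, and pieces without them (NoPP). No animal was treated, and no group is a control. The labels list 16 samples, 4 per region, but each region comes as 1 matrix whose barcodes do not tell the samples apart, so a region is 1 library, no difference between regions has a replicate check, and no test across samples was possible.

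The lining of the small intestine is renewed from stem cells at the base of the crypts, which divide under Wnt signals and send daughter cells up towards the villus. LGR5 is a receptor for R-spondins, which strengthen Wnt signalling, and RNF43 is a ubiquitin ligase that removes Wnt receptors from the cell surface and is itself switched on by the pathway. ASCL2 and SOX9 are transcription factors of crypt cells, EPHB2 is a receptor that positions cells along the crypt axis, and CD44 is a hyaluronan receptor that is a Wnt target in crypts and is also widely carried by white blood cells. OLFM4 encodes a secreted glycoprotein used as a crypt marker, and DAB2 encodes an adaptor that loads receptors into clathrin-coated pits and is also known from macrophages.

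Values are unique molecular identifiers (UMIs, 1 per captured RNA molecule) summed over barcodes and given as CPM, which scales the counts to the total UMIs of those barcodes, with 95% intervals that cover counting error only. A barcode needed 1000 UMIs or more, 500 genes or more and no more than 25% mitochondrial UMIs, which left 718 barcodes in DUOD, 986 barcodes in JEJ, 3273 in IPP and 2084 in NoPP, from libraries holding 91813234, 64364750, 65583520 and 44726845 UMIs. The epithelial gate took barcodes with a UMI of the epithelial adhesion gene EPCAM and none of the leukocyte gene PTPRC, which gave 243, 294, 239 and 122 barcodes in that order, 898 in all. The immune gate took barcodes with PTPRC and no EPCAM, which gave 366, 582, 2587 and 1772, or 5307 in all. Depth differed between the gates and regions, with epithelial medians of 23257 UMIs in DUOD, 7982.5 UMIs in JEJ, 14512 in IPP and 11953 in NoPP and immune medians between 3118 and 4325. The sum of 6 other epithelial markers ranged from 2962 to 5197 CPM in the epithelial gates and from 81.0 to 181 CPM in the immune gates, while the sum of 13 T or innate lymphoid markers ranged from 77.3 to 349 CPM and from 13173 to 37351 CPM. In NoPP, 121 barcodes were dropped because a different library held 10 times their UMIs or more. With these kept, the NoPP epithelial gate held 214 barcodes, and of the regional ratios counted below, DAB2 in NoPP against JEJ moved past 2-fold to a log2 ratio of -1.07. Among kept barcodes, 135 in DUOD, 6 barcodes in JEJ, 21 in IPP and 15 in NoPP also reached 1000 UMIs in a different library.

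The epithelial gates differed from region to region in which of the 8 genes they carried. DUOD carried RNF43, ASCL2 and CD44 with almost no OLFM4, JEJ carried OLFM4, DAB2 and RNF43 with little CD44, NoPP carried OLFM4, DAB2, CD44 and SOX9, and IPP lay below NoPP for 4 of the 5 genes counted in both. LGR5 was near 0 in all 4. The plot of levels by region and gate shows these patterns for the 8 genes.

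**Figure D1:**
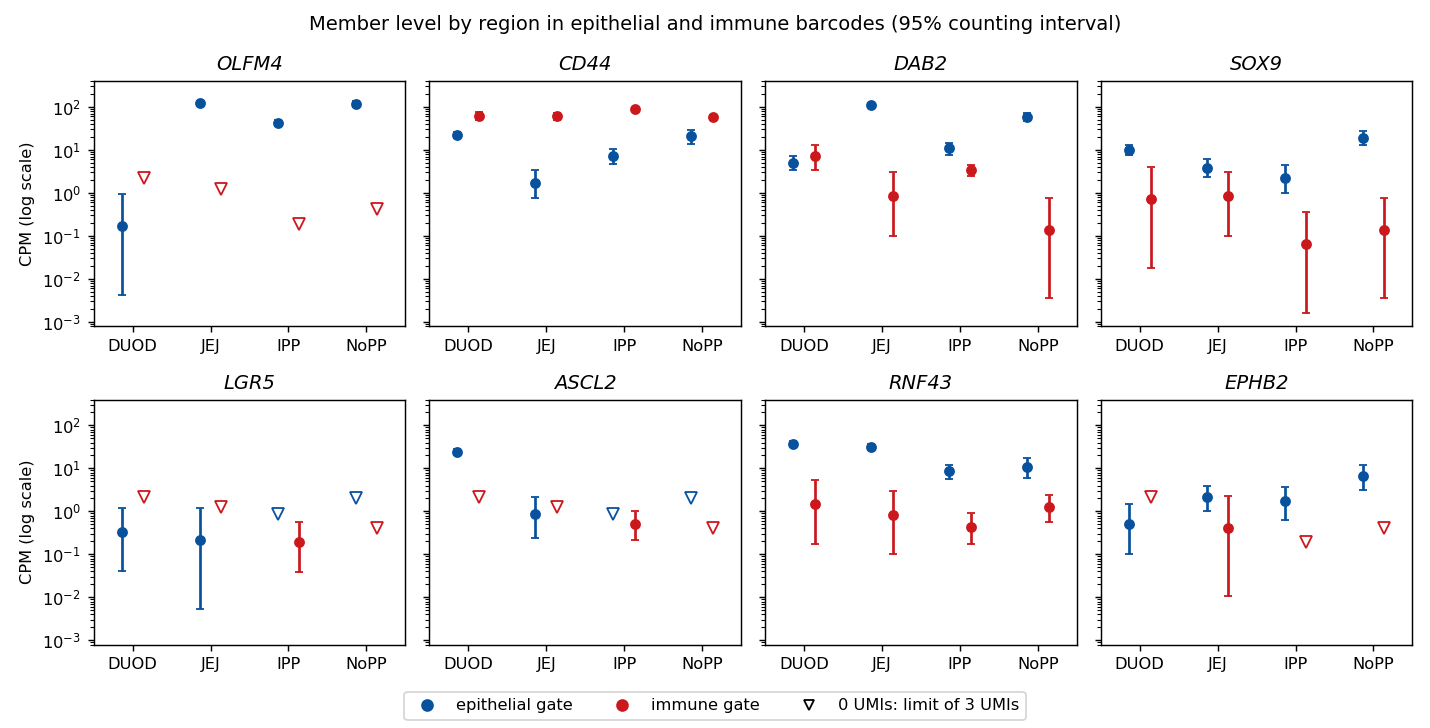
CPM of each of the 8 genes (log scale) in the epithelial gate (blue) and the immune gate (red) of the 4 regions, with 95% counting intervals as bars and open triangles where no UMI was counted, set at the floor of 3 UMIs. OLFM4 lies at 121 CPM in JEJ and 117 CPM in NoPP with no UMI in any immune gate, and CD44 lies lower in the epithelial than in the immune gate of every region.

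Among the Wnt regulators, LGR5 gave 2 UMIs in DUOD, 1 in JEJ and 0 in IPP and NoPP. That was 3 UMIs over 898 epithelial barcodes, or 0.192 CPM, and the interval of a count of 0 reaches 1.05 CPM in IPP and 2.46 CPM in NoPP. At this depth the level of LGR5 could not be compared between regions. LGR4, the related R-spondin receptor, was counted at 84.7 CPM in DUOD, 78.0 CPM in JEJ, 87.4 in IPP and 104 in NoPP. RNF43 was the most widely detected of the 8 genes, at 37.2 CPM (32.5 to 42.5) in DUOD, 31.7 CPM (26.8 to 37.3) in JEJ, 8.54 CPM (5.76 to 12.2) in IPP and 10.7 CPM (6.09 to 17.3) in NoPP. The proximal regions thus lay above both ileal samples, with no overlap of the intervals between these pairs. It was seen in 40.7% of barcodes in DUOD, 29.6% of them in JEJ, 11.7% in IPP and 11.5% in NoPP, a share that also moves with depth.

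Of the crypt transcription factors, ASCL2 gave 143 UMIs in 32 barcodes of DUOD (23.9 CPM), 4 UMIs in JEJ (0.864 CPM) and none in IPP or NoPP. SOX9 stood at 10.0 CPM in DUOD, 3.89 CPM in JEJ, 2.28 in IPP and 19.3 in NoPP, from 60, 18, 8 and 29 UMIs. The order of SOX9 was therefore NoPP, DUOD, JEJ and IPP, and JEJ and IPP were not told apart by their counting intervals. EPHB2 gave 3 UMIs in DUOD, 10 UMIs in JEJ, 6 in IPP and 10 in NoPP, which is 0.501, 2.16, 1.71 and 6.66 CPM.

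CD44 stood at 22.2 CPM (18.6 to 26.3) in DUOD, 1.73 CPM (0.746 to 3.40) in JEJ, 7.12 CPM (4.61 to 10.5) in IPP and 20.6 CPM (14 to 29.3) in NoPP. DUOD and NoPP overlapped, and JEJ lay below the other regions. Free RNA in barcodes of 1 to 100 UMIs held CD44 at 6.50 CPM in DUOD, 6.41 CPM in JEJ, 25.6 in IPP and 15.1 in NoPP, and only the DUOD interval lay wholly above that level. OLFM4 gave 1 UMI in DUOD (0.167 CPM), 560 UMIs in 20 barcodes of JEJ (121 CPM, 111 to 131), 148 UMIs in 3 barcodes of IPP (42.1 CPM, 35.6 to 49.5) and 176 UMIs in 9 barcodes of NoPP (117 CPM, 101 to 136). JEJ and NoPP overlapped, and the IPP value rested on 1 barcode with 140 of the 148 UMIs. DAB2 stood at 5.01 CPM in DUOD, 110 CPM in JEJ, 10.8 in IPP and 57.3 in NoPP, from 30, 510, 38 and 86 UMIs. JEJ and NoPP lay above both IPP and DUOD. Of the 38 IPP UMIs, 27 lay in 1 barcode, and without 1 cluster of epithelial barcodes led by the gene SPAI-2 (the SPAI-2 cluster, described with the other clusters) IPP stood at 2.89 CPM and DUOD at 3.35 CPM, so these are not ordered.

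Ratios between regions were counted for genes with at least 20 UMIs over both libraries, and a gene was called higher or lower when its ratio of CPM passed 2-fold. These calls describe pairs of libraries, and the 4 comparisons share libraries, so they do not support one another. In JEJ against DUOD, 6 of the 8 genes were counted, 2 were higher and 3 lower, where 10.9% of all counted genes were higher and 8.04% lower. OLFM4 was higher by a ratio of 724 (129 to 28660), set by the single UMI in DUOD, and DAB2 was 22.0-fold higher (15.2 to 32.9). CD44 was 12.9-fold lower (6.34 to 30.4), ASCL2 27.6-fold lower (10.6 to 103) and SOX9 2.58-fold lower (1.50 to 4.64), while RNF43 differed by 1.17-fold, with an interval from 0.948 to 1.45 that spans 1. With each gate thinned to 1000 UMIs per barcode, none of the genes was called lower, since few kept 20 UMIs.

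In NoPP against JEJ, 3 of 6 counted genes were higher and 1 lower, beside 15.9% and 7.36% of all genes. CD44 was 11.9-fold higher (5.37 to 30.1), SOX9 4.97-fold higher (2.67 to 9.50) and EPHB2 3.08-fold higher (1.15 to 8.26), and RNF43 was 2.98-fold lower (1.77 to 5.35). OLFM4 had a ratio of 0.969 (0.813 to 1.15), and DAB2 was 1.92-fold lower (1.53 to 2.45), just short of the limit. Under a mitochondrial limit of 10%, none of the genes was higher and 2 were lower. SOX9 then stood at a log2 ratio of 0.11, and EPHB2 turned to -1.96, against 1.62 under the limit of 25%.

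The tissues with and without Peyer's patches were both ileum, and in IPP against NoPP 0 of 5 counted genes were higher and 4 lower, beside 3.45% and 12.2% of all genes. SOX9 was 8.48-fold lower in IPP (3.78 to 21.5), DAB2 5.30-fold (3.58 to 7.98), CD44 2.90-fold (1.66 to 5.13) and OLFM4 2.78-fold (2.22 to 3.49). RNF43 was 1.25-fold lower, with an interval from 0.635 to 2.36. Without the highest barcode of each gene, OLFM4 reached a log2 ratio of -5.07 against -1.48 and DAB2 -3.72 against -2.40. In thinned counts no gene was called lower. The median mitochondrial share of the epithelial gate was 15.5% in IPP and 9.03% in NoPP. Under a mitochondrial limit of 10%, 2 genes were called lower in place of 4, and without the SPAI-2 cluster 1 was.

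In NoPP against DUOD, the far ends of the sampled gut, 2 of 6 counted genes were higher and 2 lower, beside 21.9% and 8.63% of all genes. DAB2 was 11.4-fold higher (7.47 to 18.0), and OLFM4 was higher by a ratio of 702 (124 to 27882) with 1 UMI in DUOD. ASCL2 was 12.0-fold lower with its 0 UMIs in NoPP set to 3 for the whole gate (lower limit 9.59), and RNF43 was 3.49-fold lower (2.10 to 6.22). SOX9 was 1.93-fold higher (1.19 to 3.05), and CD44 had a ratio of 0.930 (0.608 to 1.38). Thinned to 1000 UMIs, 0 genes were called in either direction, and without the SPAI-2 cluster 1 was called higher.

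Other genes of the same pathways were read from lists. Of 33 Wnt receptors, regulators and targets, 18 were counted in JEJ against DUOD, with 2 higher and 2 lower and a median log2 ratio of 0.04, beside 0.15 for all genes. AXIN2, a feedback inhibitor and direct target of the pathway, was 4.57-fold lower in JEJ (2.39 to 9.60), from 11 and 65 UMIs, and EPHB3, the partner receptor of EPHB2, was 2.83-fold lower (1.47 to 5.90). LRP6, a Wnt co-receptor, was 2.12-fold higher (1.57 to 2.88). In NoPP against DUOD, 4 of 16 counted Wnt genes were higher and 3 lower, with AXIN2 2.72-fold lower (1.18 to 7.67) and the cyclin gene CCND1 2.81-fold lower (1.76 to 4.76). In NoPP against JEJ, 3 of 16 were higher and 2 lower. EFNB2, a ligand of EPHB2, was 6.09-fold higher (4.63 to 8.07), and CCND2 was 2.20-fold lower (1.40 to 3.61). In IPP against NoPP, none of 14 was higher and 3 were lower, among them CCND1 and CCND2 at 2.78-fold and 2.14-fold.

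Of 20 other crypt and stem genes, SMOC2, a secreted matrix protein of stem cells, gave 0 UMIs in DUOD, 34 UMIs in JEJ, 9 in IPP and 32 in NoPP. With the 0 UMIs of DUOD set to 3, its level was 14.7-fold higher in JEJ and 42.5-fold higher in NoPP than in DUOD. It was 8.32-fold lower in IPP than in NoPP (3.88 to 19.8). SLC12A2, the chloride importer of crypt cells, was 3.70-fold higher in NoPP than in JEJ (3.16 to 4.34) and 4.32-fold lower in IPP than in NoPP (3.61 to 5.18). CLU, a secreted chaperone known from injured epithelium, ran the other way, with 825 UMIs in DUOD and 25 in JEJ, 25.5-fold lower (17.2 to 39.7). As a whole, 2 genes of this list were higher and 2 lower of 10 counted in JEJ against DUOD, and likewise 2 and 2 of 10 in NoPP against JEJ, 0 and 3 of 8 in IPP against NoPP, and 4 and 3 of 10 in NoPP against DUOD. Among Notch pathway genes, which keep crypt cells from turning secretory, 3 of 8 were higher and none lower in JEJ against DUOD, with NOTCH2 6.07-fold higher (3.95 to 9.66), and 0 of 7 were higher and 5 lower in IPP against NoPP, with NOTCH2 4.39-fold lower (2.32 to 8.62). The other comparisons were mixed, with 3 of 8 higher and 2 lower in NoPP against JEJ and 3 of 7 higher and 1 lower in NoPP against DUOD.

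Genes of dividing cells were mostly higher in JEJ than in DUOD and in NoPP than in JEJ. In JEJ against DUOD, 12 of 16 counted were higher and none lower, with a median log2 ratio of 1.43, and MCM6, a subunit of the replicative helicase, was 14.9-fold higher (7.58 to 33.6). In NoPP against JEJ, 8 of 15 were higher and none lower, with CENPF, a kinetochore protein, 9.95-fold higher (6.59 to 15.4) and TOP2A, the topoisomerase of dividing cells, 5.67-fold higher (3.98 to 8.18). In IPP against NoPP, none of 16 was higher and 10 were lower, with CENPF 23.4-fold lower (12.2 to 50.3) and TOP2A 14.4-fold lower (8.26 to 26.7). In NoPP against DUOD, 13 of 15 were higher, with CENPF 39.9-fold higher (20.8 to 85.7). Of 13 counted mature enterocyte genes, 8 were higher and none lower in JEJ against DUOD, 8 were lower and none higher in NoPP against JEJ, and 6 were higher and none lower in IPP against NoPP. Of 8 counted secretory lineage factors, 3 were higher and 2 lower in JEJ against DUOD, and 8 were higher in NoPP against JEJ. In NoPP against DUOD 7 were higher, and in IPP against NoPP 3 were lower. The goblet-like cluster held 19 of 333 epithelial-cluster barcodes in JEJ and 40 of 150 in NoPP. The part of this cell mix in the ratios of the 8 genes was not tested. In a sum over a gate, a smaller number of crypt cells and less RNA per crypt cell cannot be told apart.

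The partners of single members were also read. Of 15 genes that work with DAB2 in endocytosis, 0 were higher and 1 lower of 12 counted in JEJ against DUOD, where DAB2 itself was 22.0-fold higher. In NoPP against JEJ, 2 of 13 were higher, and CUBN, the vitamin B12 receptor cubilin, was at least 85.3-fold higher, from 83 UMIs against 0. Of the ligands, partners and enzymes of CD44, SPP1, which encodes osteopontin, was 57.0-fold higher in NoPP than in JEJ (14.7 to 489, 2 UMIs in JEJ) and a further 10.7-fold higher in IPP than in NoPP (7.67 to 15.2). CD74, the invariant chain and a partner of CD44, was 9.40-fold higher in IPP than in NoPP (5.41 to 17.9). The summed T and innate lymphoid markers were also higher in the epithelial gate of IPP, at 349 CPM against 146 in NoPP, and the summed B markers at 29.3 against 2.00 CPM. Their part in the CD74 difference was not tested.

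The 8 genes were spread over barcodes in different ways. Over the 898 epithelial barcodes, 885 OLFM4 UMIs lay in 33 barcodes, and the 5 highest held 50% of them, with up to 140 in 1 barcode. DAB2 lay in 94 barcodes, of which 8 held 50% of the 664 UMIs, with a highest count of 111. RNF43 lay in 228 barcodes with at most 8 UMIs in any, and 60 barcodes were needed for 50%. CD44 lay in 108 barcodes with at most 7 UMIs, 62 of them with a single UMI. SOX9 was in 64 barcodes with at most 6 UMIs, ASCL2 in 35 with at most 20, EPHB2 in 20 with at most 4, and LGR5 in 3. OLFM4, DAB2 and ASCL2 thus had single barcodes with high counts, although 44 of the 94 DAB2 barcodes held a single UMI, and RNF43, CD44 and SOX9 had low counts throughout.

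**Figure D2:**
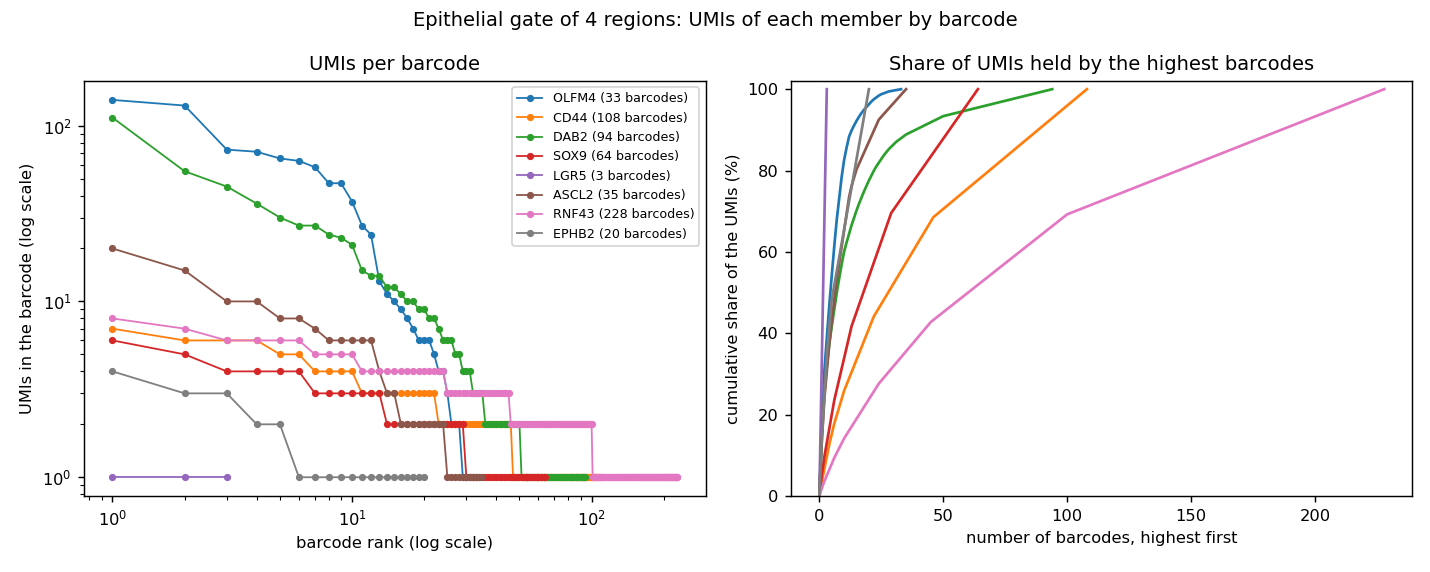
UMIs of each gene per epithelial barcode, ranked from the highest (left, both axes log), and the cumulative share of a gene's UMIs held by its highest barcodes (right), over the 898 barcodes of the 4 regions. The curves of OLFM4 and DAB2 start above 100 UMIs and climb to 50% within 5 and 8 barcodes, whereas RNF43 starts at 8 UMIs and needs 60.

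Barcodes of epithelial clusters, 1028 in all, were clustered again without the 8 genes, which gave 12 clusters. OLFM4 and DAB2 nevertheless gathered in 1 of them, a group of 49 barcodes (4.77%) that held 2 from DUOD, 33 from JEJ, 3 from IPP and 11 from NoPP. Its other leading genes were SPAI-2, FCN2, PIGR, CFI, C3 and SPINK1, of which PIGR carries antibodies across the epithelium and CFI and C3 belong to the complement system. None of the listed markers was among its 10 leading genes. Its best class was goblet, with 6 markers detected and a mean log2 score of 4.67. Paneth followed at 2.95, so the lead fell short of the margin of 2 asked for. The list of crypt markers without the 8 genes had 2 detected, under the 3 needed for a name. Its score was 0.94, taken like the others over the level in non-epithelial barcodes. The cluster was left unnamed, and is called the SPAI-2 cluster here. It held 94.1% (92.5 to 95.4) of all OLFM4 UMIs of the 1028 barcodes at 1414 CPM (1329 to 1503), and 77.2% (74.1 to 80.0) of DAB2 UMIs at 833 CPM. It also held 53.1% of EPHB2 UMIs at 23.3 CPM, 20.7% of SOX9 at 39.7 CPM and 12.3% of CD44 at 35.6 CPM, but 4.17% of RNF43 at 24.7 CPM and 3.36% of ASCL2 at 6.85 CPM. LGR5 gave 2 UMIs there. The 8 genes therefore did not mark a single population. In this cluster 33 of 49 barcodes had OLFM4 and 36 had DAB2.

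RNF43 was highest in enterocyte-like clusters, the absorptive cells, of DUOD and JEJ, and ASCL2 in that of DUOD alone. The DUOD cluster led by TMPRSS15 and TM4SF1, with 160 barcodes, held RNF43 at 43.6 CPM (38.0 to 49.7) in 99 barcodes, ASCL2 at 28.0 CPM (23.6 to 33.0) from 144 UMIs in 33 barcodes, and CD44 at 22.0 CPM. The JEJ cluster led by RBP2, with 110 barcodes, held RNF43 at 38.3 CPM and DAB2 at 27.0 CPM, in barcodes with at most 12 DAB2 UMIs. A second JEJ enterocyte-like cluster, with 94 barcodes led by APOC3, had RNF43 at 9.68 CPM from 3 UMIs. ASCL2 stood at 0 CPM in the JEJ barcodes of both clusters and at 9.04 CPM in those of the SPAI-2 cluster. The ileal enterocyte-like cluster of 179 barcodes had RNF43 at 4.97 CPM, and the goblet-like cluster of 105 barcodes had 15.7 CPM. At a finer resolution, ASCL2 was among the leading genes of a DUOD cluster of 63 barcodes led with it by SLC11A2, TMPRSS15 and HMOX1.

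SOX9 was spread more widely over these epithelial clusters. The BEST4 enterocyte-like cluster, with 64 barcodes, held it at 50.7 CPM from 22 UMIs in 9 barcodes, and the enteroendocrine-like cluster of 76 barcodes led by SST and CCK, the hormone-making cells, held it at 21.2 CPM beside EPHB2 at 6.06 CPM. The BEST4 enterocyte-like cluster also had OLFM4 at 111 CPM, all 48 UMIs of it in 1 JEJ barcode, and DAB2 at 78.3 CPM, with 21 of 34 UMIs in 1 barcode. No JEJ barcode of the epithelial gate held 48 OLFM4 UMIs, so the barcode with these 48 lay outside the gate. A JEJ barcode with both EPCAM and PTPRC, thus in neither gate, held 48.

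**Figure D3:**
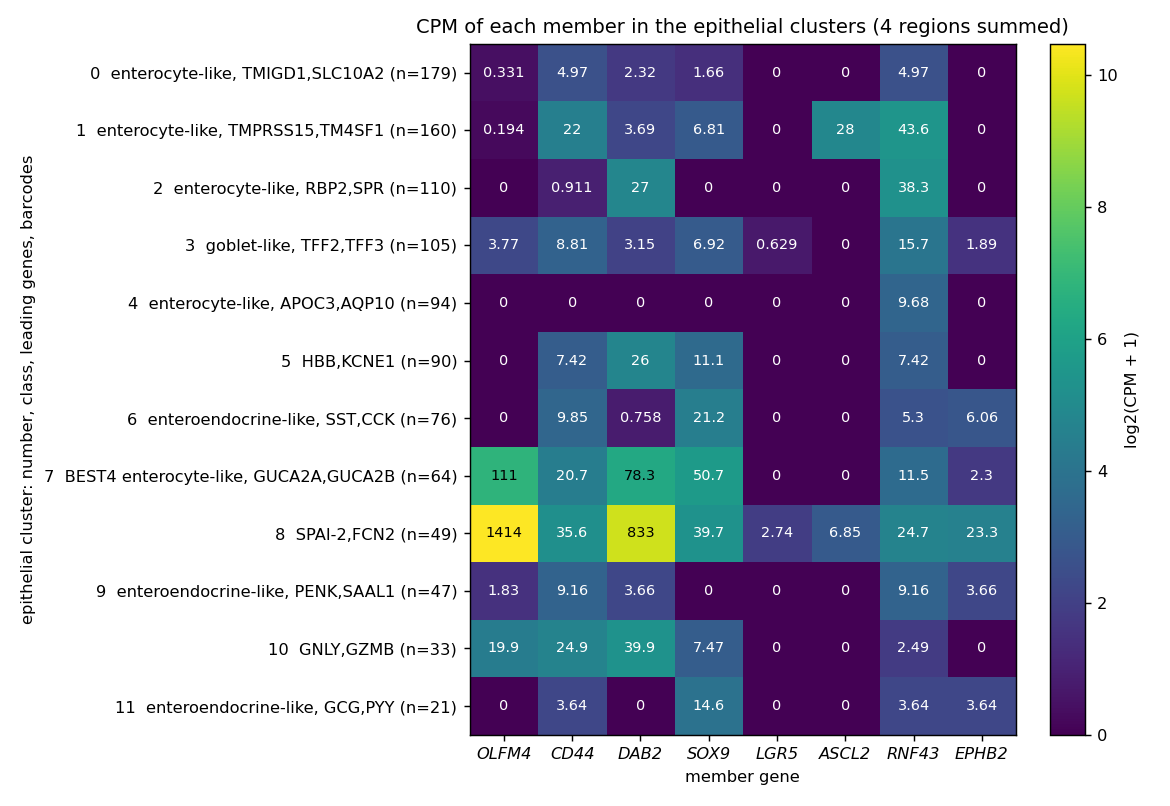
CPM of each of the 8 genes (columns) in the 12 epithelial clusters (rows, with their class, leading genes and number of barcodes), with colour giving log2(CPM + 1). OLFM4 (1414 CPM) and DAB2 (833 CPM) are highest in the SPAI-2 cluster, and RNF43 (43.6 CPM) and ASCL2 (28.0 CPM) in the duodenal enterocyte-like cluster.

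The share of the epithelial gate that lay in the SPAI-2 cluster was 0.823% in DUOD (2 of 243, exact interval 0.0998 to 2.94), 9.52% in JEJ (28 of 294, 6.42 to 13.5), 0.837% in IPP (2 of 239, 0.102 to 2.99) and 8.20% in NoPP (10 of 122, 4.00 to 14.6). The intervals of JEJ and NoPP overlapped with each other and not with those of DUOD or IPP. They cover only the sampling of barcodes within 1 library per region and not the spread between animals, so the difference in share was not tested. Within these barcodes, OLFM4 stood at 1547 CPM in JEJ, 2537 CPM in IPP from 2 barcodes and 1060 CPM in NoPP, and gave 0 UMIs of 26212 in DUOD. Outside them, OLFM4 was left with 1 UMI each in DUOD, JEJ and IPP and with 6 in NoPP. DAB2 in the cluster stood at 382 CPM in DUOD, 1137 CPM in JEJ, 483 in IPP and 480 in NoPP, and outside it at 3.35, 23.2, 2.89 and 6.71 CPM. Without the cluster, DAB2 was still higher in JEJ than in DUOD, at a log2 ratio of 2.79 against 4.46 with it. RNF43 outside the cluster was at 37.4, 32.6, 8.39 and 8.95 CPM, close to its values in the whole gates. CD44 in the cluster differed between regions, at 2.77 CPM in JEJ and 93.5 CPM in NoPP, and without the cluster CD44 in NoPP against DUOD went from a log2 ratio of -0.11 to -0.87.

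The epithelial barcodes with an OLFM4 UMI were set beside those without one in JEJ (20 against 274, median UMIs 5635 and 8110.5) and NoPP (9 against 113, median UMIs 17428 and 11926), a comparison that was chosen after the values were seen. It has 1 library on each side, and OLFM4 itself is fixed by it. DAB2 stood at 1166 against 27.3 CPM in JEJ, 42.8-fold higher (34.7 to 53.0), and at 447 against 6.77 CPM in NoPP, 66.1-fold higher (33.1 to 150). CD44 was at 2.97 against 1.63 CPM in JEJ, from 1 and 7 UMIs, and at 98.8 against 10.5 CPM in NoPP, 9.38-fold higher (4.35 to 20.6). SOX9 was 10.2-fold higher in JEJ (3.49 to 28.7), from 8 and 10 UMIs, and 4.07-fold higher in NoPP (1.69 to 9.19). EPHB2 gave 6 and 4 UMIs in JEJ and 9 and 1 in NoPP. RNF43 stood at 14.8 against 33.1 CPM in JEJ, a ratio of 0.448 (0.143 to 1.07), and at 23.2 against 9.03 CPM in NoPP, a ratio of 2.57 (0.605 to 8.50), and both intervals span 1.

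By barcode, DAB2 was seen in 18 of the 20 OLFM4-positive barcodes of JEJ (90.0%) and in 40 of the 274 others (14.6%). Thinned to 1000 UMIs, it was seen in 11 of 13 and in 12 of 281. In NoPP it was seen in 7 of 9 and in 5 of 113, CD44 in 5 of 9 and 7 of 113, SOX9 in 5 of 9 and 10 of 113, and EPHB2 in 4 of 9 and 1 of 113. Thinned in NoPP, DAB2 was seen in 3 of 6 and 1 of 116, and EPHB2 in 1 of 6 and 1 of 116. SOX9 was then seen in 0 of 6 and 1 of 116 and CD44 in 0 of 6 and 0 of 116, too few to compare at equal depth. RNF43 was seen in 3 of 20 and in 84 of 274 in JEJ, and ASCL2 in 3 of 20 and in 0 of 274.

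All counted genes of dividing cells were higher in the OLFM4-positive barcodes, 14 of 14 in JEJ and 15 of 15 in NoPP, beside 21.5% and 17.6% of all counted genes, with median log2 ratios of 3.91 and 5.76 against 0.20 and 0.08 for all genes. TOP2A was 66.9-fold higher in JEJ (31 to 165) and 237-fold higher in NoPP, from 92 UMIs against 0 set to 3. CENPF was 250-fold higher in NoPP (83.0 to 1232), from 97 and 3 UMIs, and HMGB2, a chromatin protein, was 23.1-fold higher in JEJ (17.4 to 31). The 13 counted mature enterocyte genes were all lower in both regions, beside 14.5% and 17.3% of all genes, with median log2 ratios of -5.18 and -3.35. FABP1, the fatty acid binding protein of enterocytes, stood at 92.0 against 23775 CPM in JEJ.

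Among other crypt genes, 5 of 10 counted were higher and 1 lower in JEJ, and 6 of 7 were higher in NoPP. SMOC2 was 49.1-fold higher in JEJ (20.9 to 134) and 27.6-fold in NoPP (11.6 to 75.5), SLC12A2 was 6.57-fold and 4.15-fold higher, and KCNE3, a potassium channel subunit, was 19.8-fold higher in JEJ (7.99 to 51.9). Of the Wnt genes, 2 of 15 counted were higher and 3 lower in JEJ, and 1 of 10 was higher and 2 lower in NoPP. The cyclin gene CCND2 was 9.86-fold higher in JEJ and 16.6-fold in NoPP, and EFNB2 was 4.98-fold lower in NoPP (1.91 to 18.5). LYZ, the lysozyme gene, was 100-fold higher in JEJ (85.0 to 119) and 8.87-fold in NoPP, and ITLN2, an intelectin, was 42.1-fold higher in NoPP (35.4 to 50.4) and 3.08-fold lower in JEJ (1.79 to 5.83). Of the goblet markers, 5 of 6 were lower in JEJ and 6 of 6 in NoPP. Of 4 counted T or innate lymphoid markers, none was higher in either region. Partners of DAB2 in endocytosis did not go with DAB2, as 0 of 12 were higher and 2 lower in JEJ and 1 of 11 was higher and 2 lower in NoPP.

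**Figure D4:**
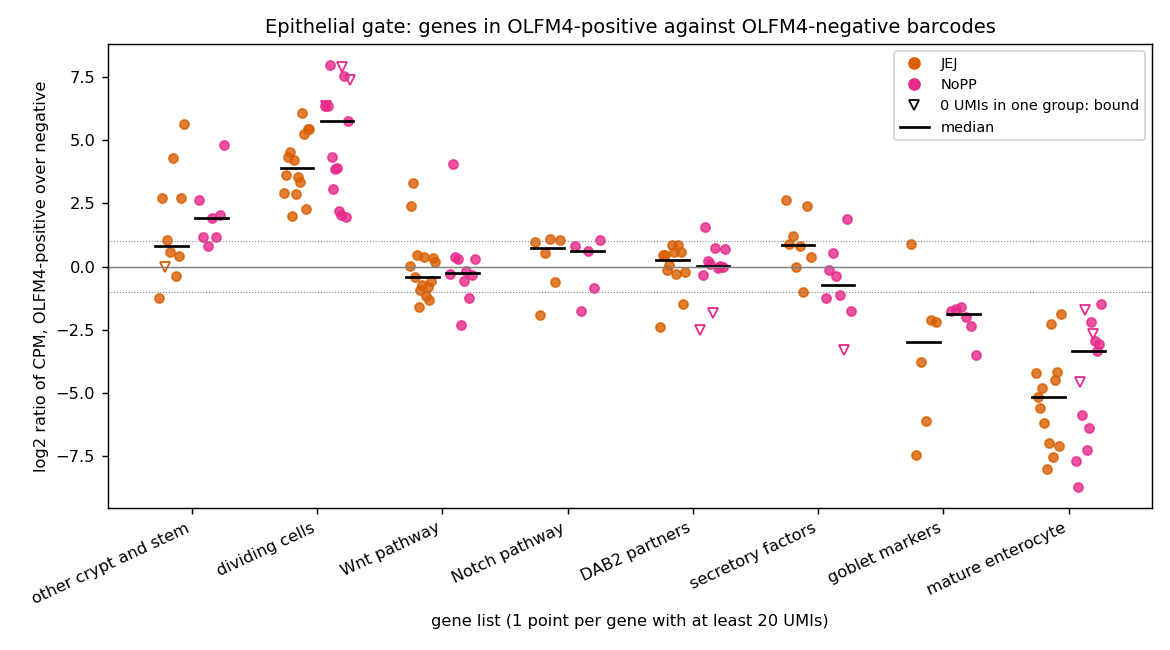
Log2 ratio of CPM in OLFM4-positive over OLFM4-negative epithelial barcodes for the genes of each list (1 point per gene, JEJ and NoPP in separate colours), with open triangles where a side had 0 UMIs, black bars at medians and dotted lines at 2-fold. The 14 counted genes of dividing cells in JEJ and the 15 in NoPP lie above the upper line, and the 13 mature enterocyte genes lie below the lower line in both regions.

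Cell division was also read barcode by barcode in counts thinned to 1000 UMIs, with classes set after the values were seen. Of 24 epithelial barcodes with UMIs of at least 3 dividing genes, 13 came from JEJ, 5 from IPP, 5 from NoPP and 1 from DUOD. OLFM4 was seen in 10 of these (41.7%) and DAB2 in 11 (45.8%), against 4 (0.657%) and 9 (1.48%) of 609 barcodes with none of the genes. In NoPP, 5 of 5 had OLFM4, in IPP 1 of 5, and in JEJ 4 of 13 had OLFM4 and 8 of 13 DAB2. CD44, SOX9 and RNF43 gave 0 among the 24, and were seen in 2 (0.328%), 5 (0.821%) and 19 (3.12%) of the 609. At such low shares, 24 barcodes are too few to tell the classes apart for these genes. These shares are at 1 fixed depth and pool the regions, and they carry no test.

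The immune gate served as the comparison outside the epithelium. OLFM4 gave 0 UMIs in its 5307 barcodes. The upper limits of the OLFM4 intervals were 2.68 CPM in DUOD, 1.54 CPM in JEJ, 0.234 in IPP and 0.513 in NoPP. With 0 set to 3 UMIs, the epithelial level of OLFM4 was 96.3-fold higher in JEJ, 221-fold in IPP and 281-fold in NoPP. The lower limits of these ratios were 78.0, 178 and 226. Without the SPAI-2 cluster the JEJ gate held 1 OLFM4 UMI, too few for a ratio. RNF43 stood at 1.45 CPM in the immune gate of DUOD, 0.838 CPM in JEJ, 0.444 in IPP and 1.25 in NoPP. It was higher in the epithelial gate of all 4 regions, by 25.7-fold (7.02 to 213), 37.9-fold (10.3 to 316), 19.2-fold (8.27 to 51.9) and 8.52-fold (3.54 to 21.9) in that order, the only one of the 8 genes counted and higher in all 4. In single regions, 25.3% of all counted genes were higher in the epithelial gate of DUOD, 25.1% of them in JEJ, 21.4% in IPP and 21.8% in NoPP. The share of all genes higher in all 4 regions together was not computed. Under the mitochondrial limit of 10%, no gene was counted and higher in all 4.

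SOX9 stood at 0.725, 0.838, 0.0635 and 0.139 CPM in the immune gates, in the order DUOD, JEJ, IPP and NoPP, and was 13.8-fold (2.39 to 555), 4.64-fold (1.11 to 41.2) and 139-fold (23.0 to 5675) higher in the epithelial gates of DUOD, JEJ and NoPP. In IPP it was 35.9-fold higher (4.81 to 1592), from 8 and 1 UMIs, too few to be counted. ASCL2 was 11-fold higher in the epithelial gate of DUOD, with its 0 immune UMIs there set to 3 (lower limit 8.81). It gave 8 immune UMIs, all in IPP. LGR5 gave 3 immune UMIs, also in IPP, and EPHB2 gave 1, in JEJ. Barcodes with both EPCAM and PTPRC, which were in neither gate, gave 54 OLFM4 UMIs in JEJ and 147 in NoPP, of which 48 and 144 lay in 1 barcode each.

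CD44 went the other way and was lower in the epithelial than in the immune gate of every region. It stood at 62.4 CPM in the immune gate of DUOD, 59.9 CPM in JEJ, 90.3 in IPP and 59.4 in NoPP, and was lower in the epithelium by 2.81-fold (2.12 to 3.71), 34.7-fold (17.1 to 81.8), 12.7-fold (8.56 to 19.7) and 2.88-fold (2.00 to 4.28). In the same order, 34.7%, 34.4%, 41.1% and 29.7% of all counted genes were lower. It was seen in 19.9%, 17.5%, 25.6% and 16.8% of immune barcodes. Thinned to 1000 UMIs, it was seen in 6.01%, 5.33%, 7.89% and 6.32% of them and in 2.06% of the epithelial barcodes of DUOD, with none in the other regions.

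Within the immune cells, CD44 varied widely between clusters. The B cell-like cluster led by BANK1 and CCR7, with 497 barcodes of which 468 were from IPP, held it at 230 CPM (214 to 246), in 62.2% of barcodes, and the antibody-secreting-like cluster led by JCHAIN held it at 191 CPM (162 to 223). The dividing B cell-like cluster led by PCLAF and TOP2A, with 465 barcodes, held it at 7.52 CPM (5.47 to 10.1), in 4.73% of barcodes at a median of 9244 UMIs. Among T or innate lymphoid-like clusters, CD44 stood at 154 CPM (125 to 187) in the one led by PDCD1, CTLA4 and ICOS, at 148 CPM (123 to 177) in the one led by S1PR1 and LEF1, at 132 CPM (109 to 157) in the one led by TAC3 and IL22, and at 99.4 CPM (86.5 to 114) in the CD8B cluster. In the cytotoxic cluster led by GNLY and GZMB, with 1371 barcodes, it was at 10.4 CPM (7.73 to 13.7). As a class, T or innate lymphoid-like barcodes held 65.6 CPM in DUOD, 58.8 CPM in JEJ, 62.9 in IPP and 56.3 in NoPP, a narrower range than that between clusters.

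**Figure D5:**
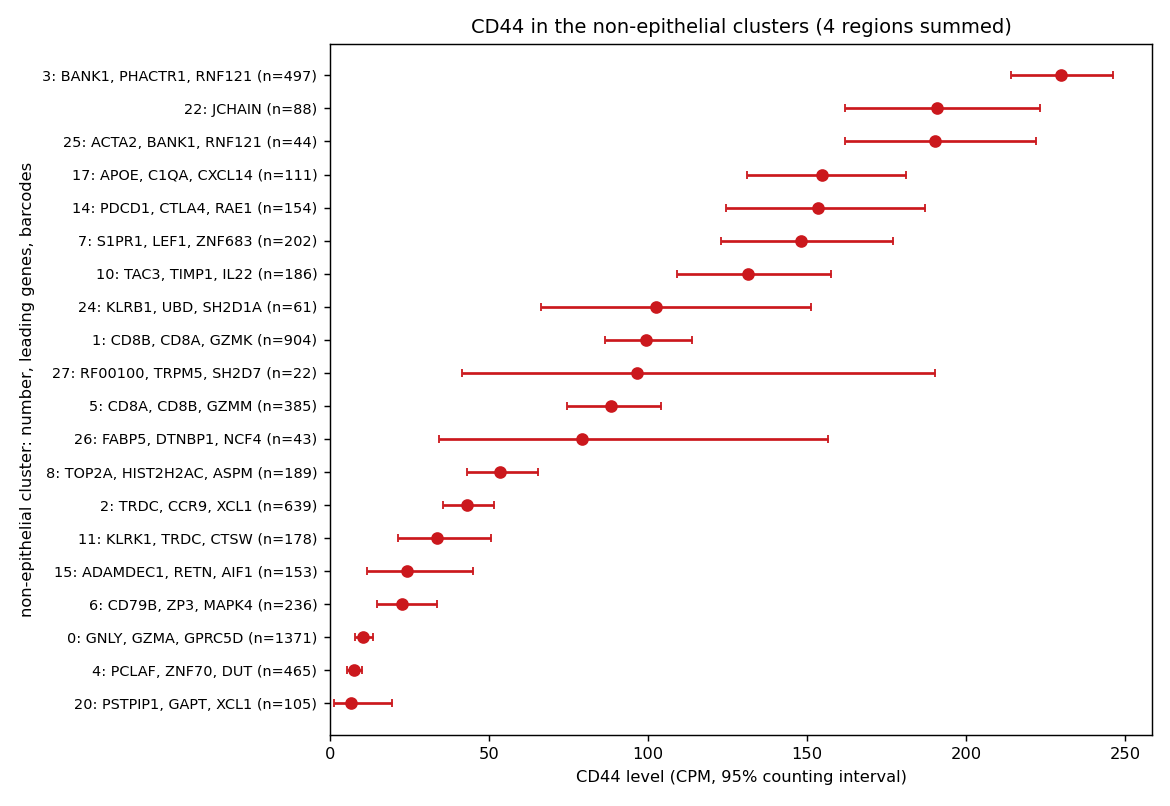
CD44 level in CPM (linear axis) in each cluster not classed as epithelial, 4 regions summed, with its leading genes and number of barcodes. Points give the level and bars the 95% counting interval. The cluster of TRPM5 and SH2D7, genes of tuft cells, is among these clusters. The B cell-like cluster of BANK1 and CCR7 lies at 230 CPM, while the dividing B cell-like cluster lies at 7.52 CPM and the cluster of GNLY and GZMB at 10.4 CPM.

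DAB2 in the immune gate stood at 7.25 CPM in DUOD, 0.838 CPM in JEJ, 3.36 in IPP and 0.139 in NoPP. Its epithelial level was 131-fold higher in JEJ (36.2 to 1089), 3.22-fold in IPP (2.06 to 4.97) and 412-fold in NoPP (72.0 to 16461), and in DUOD the ratio was 0.691 (0.329 to 1.58), which spans 1. Over all kept barcodes, whether or not in the immune gate, a cluster of 111 barcodes with macrophage and stromal genes (APOE, C1QA, COL3A1) held DAB2 at 69.3 CPM. Its DUOD barcodes gave 78.5 CPM, from 26 UMIs in 7 barcodes, which is more than the 10 UMIs of the DUOD immune gate, and 18 DUOD UMIs lay in barcodes with neither EPCAM nor PTPRC. Its IPP barcodes gave 82.0 CPM, from 41 UMIs in 14, beside 15 UMIs in B cell-like and 4 in T or innate lymphoid-like barcodes of IPP. Split after the values were seen, 76 barcodes with more macrophage UMIs held DAB2 at 68.1 CPM and 19 with more stromal UMIs at 141 CPM. A small cluster led by TRPM5 and SH2D7, genes of tuft cells, had SOX9 at 109 CPM, from 9 UMIs in 5 of its 22 barcodes. It was classed as T or innate lymphoid, with 12 of those markers and 6 epithelial markers detected. Its barcodes are thus not among the 1028 of the epithelial clusters. In the cluster of PDCD1 and ICOS, ASCL2 gave 6 UMIs in 3 barcodes.

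Barcodes of 1 to 100 UMIs, which hold mostly free RNA, gave RNF43 at 15 CPM in DUOD, 39.4 CPM in JEJ, 4.81 in IPP and 8.87 in NoPP, so that its level there was near its epithelial level in JEJ and NoPP. OLFM4 was at 0.813, 12.8, 1.78 and 11.5 CPM in the same order and DAB2 at 2.85, 20.8, 2.31 and 8.46 CPM. Immune barcodes in the same libraries held RNF43 at no more than 1.45 CPM. The CD44 of the epithelial gates in JEJ and IPP lay below that of free RNA, as did RNF43 in JEJ, and the part of free RNA in these values was not tested.

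Epithelial barcodes above the mitochondrial limit, 4431 in all against 898 below it, gave like values for RNF43, at 38.7 CPM in DUOD, 32.1 CPM in JEJ, 8.18 in IPP and 12.3 in NoPP. OLFM4 was lower among them, at 0.111, 6.46, 0.355 and 12.9 CPM, as was ASCL2 in DUOD at 3.21 CPM, and LGR5 gave 0 UMIs.

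The genes whose levels went most closely with each of the 8 were found over 59 profiles, each a cluster in 1 region with at least 20 barcodes, among 5326 genes. These are descriptions, since profiles share libraries and depth. OLFM4 went with FCN2 (Pearson's r of log2 CPM 0.98), PIGR (0.88) and SCGB1A1 (0.87), and DAB2 with C3 (0.86), CFB (0.83) and FCN2 (0.82). The OLFM4 values rest on few profiles. It stood at 1277 CPM in the SPAI-2 cluster of JEJ and 206 CPM in the BEST4 enterocyte-like cluster of JEJ, from 1 barcode outside the epithelial gate. In all other profiles it was at 11.4 CPM or less. SOX9 went with SCGB1A1 (0.75) and SPINK1 (0.68), and EPHB2 with OLFM4 (0.80) and FCN2 (0.79), although EPHB2 was at 15.8 CPM or less in every profile. RNF43 went with PRKAB2 (0.76) and EFNA1 (0.75), and CD44 with GPR183 (0.83), CYTH1 (0.81) and VIM (0.77). For ASCL2 no gene exceeded 0.44, reached by ATP2B1 and NCOA4. The nearest gene to LGR5 was OLFM4 (0.80), on so few UMIs that the value carries little weight.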

How the data were processed

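Single cells were captured with 10x 3' v3 chemistry after epithelial release with DTT and EDTA and a Percoll gradient, per the labels' protocols. Per the file headers, the deposited counts are raw UMI counts per gene and barcode from Cell Ranger 4, and the submitters' processing notes name Cell Ranger 4.0.6. No coordinates are printed, because the build is not given in the sources used here. Total counts per library ranged from 44726845 to 91813234.

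Barcodes were filtered and gated as described, and those with at least 10 times the UMIs in another library were left out (121, all in NoPP). Of the genes, 17733 had a symbol in the files, 977 took one from a gene name table and 7170 had none. Doublets were not removed in the main values; an alternative left out the 133 barcodes of 7061 with the highest doublet scores. Clusters came from the Leiden method (28 clusters, 20 neighbours, 30 principal components, 2000 variable genes without mitochondrial genes and the 8 members, then 12 epithelial clusters with 15 neighbours). Clusters were named from listed markers by a rule that was revised after the clusters were seen, asking for a margin of 2 on the log2 scale where no marker was among the 10 leading genes. Ratios of CPM have exact conditional Poisson intervals, 0 UMIs were set to 3, and calls needed 20 UMIs over both sides. Genes named in comparisons of regions and gates are the 8 members and, of each list, up to 4 with the largest ratios; the 3 nearest genes of each member were open to naming. Genes named in the comparison by OLFM4 UMIs were chosen after their values were seen. The members and lists were chosen with earlier results of these data known. The ratio script was tested on simulated counts. Alternatives changed the filters, gates, thinning, scaling and clustering. Python 3.11.15, numpy 2.4.6, scipy 1.17.1, scikit-learn 1.9.0, igraph 0.11.9 and leidenalg 0.10.2 were used.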

Additional observations from a re-analysis of the deposited data

Results flagged for a closer look

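DAB2 differed in direction between regions when the epithelial gate was set against the immune gate, with a log2 ratio of -0.53 in DUOD against 7.04 in JEJ, 1.69 in IPP and 8.69 in NoPP. Each value is from 1 library, so the difference between regions was not tested. The DUOD ratio has a counting interval that spans 1, and the mean of CPM over barcodes gave 1.40 there. The IPP ratio was -1.30 under the mitochondrial limit of 10% and -0.22 without the SPAI-2 cluster.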

How the results depend on the processing

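No paired analysis was possible because the matrices carry no sample numbers and each region is 1 library without a test, so leaving out replicates was not possible either. Of 545 ratios of single members recomputed, 463 stayed within their counting interval, 79 moved and 3 changed sign, and none was computed where both sides held 3 UMIs or fewer. With a mitochondrial limit of 10%, members higher in NoPP against JEJ came to 0 and lower to 2, lower in IPP against NoPP to 2, and higher than in the immune gate in all 4 regions to 0, and the log2 ratio of EPHB2 in NoPP against JEJ turned to -1.96 and of DAB2 in the epithelium against immune cells of IPP to -1.30. Members lower in NoPP against JEJ came to 2 with a limit of 40%, with shared barcodes kept and without the highest barcode of each gene, and to 3 with the mean of CPM over barcodes, which gave 2 members higher than in the immune gate in all 4 regions, as did a minimum of 5 UMIs. Thinned to 1000 UMIs, the counts came to 0 for lower in JEJ against DUOD, higher in NoPP against JEJ, lower in IPP against NoPP, both directions in NoPP against DUOD and higher than in the immune gate in all 4, since few members kept 20 UMIs, and to 2 for lower in NoPP against JEJ. Without the SPAI-2 cluster, an alternative chosen after seeing the data, members higher in JEJ against DUOD came to 1, lower in NoPP against JEJ to 2, lower in IPP against NoPP to 1 and higher in NoPP against DUOD to 1, and DAB2 against immune cells of IPP turned to -0.22. LGR5 had at most 2 UMIs and EPHB2 at most 10 in any epithelial gate, and the part of depth in these low counts was not tested.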
